A study of Mus musculus with 7 samples.

Results

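ATAC-Seq, in which the Tn5 transposase cuts and tags DNA where chromatin is open, was done on 3 endocrine cell types of the mouse islet, alpha, beta and delta. Peaks of all 7 libraries were merged where they overlapped by at least 1 bp, and the regions described here are those on the autosomes that had a peak in all 7 lists and lay more than 3 kb from every annotated transcript start. They numbered 6597, of 17088 autosomal regions with a peak in every list, and of 770043 merged autosomal regions in all. They are called pan-islet distal regions, and the other 10491 are called pan-islet promoter regions. Cells came from healthy triple transgenic mice that carried mIns1-H2b-mCherry and Rosa-LSL-YFP together with either Sst-Cre or Gcg-Cre, so that an Ins1-driven nuclear mCherry marked beta cells and YFP switched on by Cre marked delta or alpha cells. There were 2 alpha, 3 beta and 2 delta libraries, each from mice pooled by sex, with both sexes in every cell type and with every mouse carrying the reporters. The age of the mice was not given in the sources used here. The groups were therefore defined by 1 promoter or Cre driver each, and spread between replicates is spread between pools. Beta cells were marked in mice of both crosses, so 1 pool may have given libraries of more than 1 cell type. The labels do not say which libraries share a pool, and the tests treat them as independent.

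DNA that is open far from transcript starts is mostly enhancers, short stretches bound by transcription factors that raise the activity of a promoter at a distance, with a smaller part of insulators bound by CTCF. Most enhancers are used by few cell types. Alpha, beta and delta cells share secretory granules and a set of transcription factors such as ISL1, PAX6 and NEUROD1, beside the genes that nearly every cell uses. The factors with the shortest and best known DNA words include AP-1, dimers of FOS and JUN proteins that respond to growth signals and stress, FOX factors such as FOXA2, bHLH factors such as NEUROD1, and RFX factors such as RFX6.

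The lists differed in length, and they carry no read depth. They held 75860 to 158066 distinct peaks, except beta 1 with 518503, of which 5.0% reached a -log10 q of 2, against 29.8% to 54.9% in the other lists. Of 5 delta marker genes, all 5 had such a peak within 10 kb of the gene in both delta libraries, 4 and 5 in the alpha libraries and 1 in each beta library. Of 7 alpha marker genes, 7 had one in each alpha and each delta library and 3 to 6 in the beta libraries, and of 7 beta marker genes 4 to 6 had one in each of the 7 libraries. Markers of acinar cells had one at 3 to 5 of 7 genes in alpha and at 0 to 2 in the other libraries, those of duct cells at 1 to 3 of 4 genes and those of immune cells at 2 or 3 of 5 genes in each library, and those of endothelial and stromal cells at 2 to 4 of 5 genes in alpha and delta and at 1 or 2 in beta. How far other cells in the sorts contributed was not tested. The beta libraries were grouped by their labels although their list names point to other cell types, and each beta value rests on those labels. Over the 6597 members, which all libraries share, Spearman's rho of fold enrichment was 0.55 to 0.63 between beta libraries, 0.37 to 0.47 between beta and alpha and 0.42 to 0.54 between beta and delta libraries, as a description.

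The sequences that carry the results are shown first. Each runs from 100 bp before to 100 bp after the summit (GRCm38, plus strand) of a pan-islet distal region and is named by the nearest protein-coding gene. Capitals mark matches to the AP-1 word TGANTCA, in which N stands for any base. The match near 4930412O13Rik, TGAATCA, thus counts as well as TGACTCA and TGAGTCA, and the forms were not counted apart. The regions near Tenm4 (chr7:95853552-95853752) and 4930412O13Rik (chr2:9620725-9620925) are shown because they are among the 10 strongest that do not resemble mitochondrial DNA and hold a FOX word as well, and that in an intron of Slc30a8 (chr15:52316339-52316539) because it lies in a gene of the insulin granule. Those near Gm9747 (chr1:82150930-82151130), Larp4b (chr13:9061474-9061674) and Rapgef2 (chr3:78432835-78433035) are shown because they are among the regions with the lowest p-values for a difference in strength between cell types.
Tenm4: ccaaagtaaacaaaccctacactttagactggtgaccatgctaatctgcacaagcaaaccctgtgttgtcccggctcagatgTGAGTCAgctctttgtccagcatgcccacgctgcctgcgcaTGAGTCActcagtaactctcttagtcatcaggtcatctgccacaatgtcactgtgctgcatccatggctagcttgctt
4930412O13Rik: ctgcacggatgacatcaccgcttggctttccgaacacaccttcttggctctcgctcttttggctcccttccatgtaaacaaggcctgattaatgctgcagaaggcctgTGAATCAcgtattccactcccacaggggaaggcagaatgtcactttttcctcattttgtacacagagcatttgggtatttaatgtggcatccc
Slc30a8: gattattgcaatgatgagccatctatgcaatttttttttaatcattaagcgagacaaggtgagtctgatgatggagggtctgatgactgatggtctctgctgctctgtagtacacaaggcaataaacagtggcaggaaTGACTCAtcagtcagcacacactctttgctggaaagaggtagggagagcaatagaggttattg
Gm9747: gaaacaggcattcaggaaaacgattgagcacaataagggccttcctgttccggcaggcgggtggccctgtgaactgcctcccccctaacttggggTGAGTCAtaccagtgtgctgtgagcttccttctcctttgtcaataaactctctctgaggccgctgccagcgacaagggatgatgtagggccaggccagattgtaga
Larp4b: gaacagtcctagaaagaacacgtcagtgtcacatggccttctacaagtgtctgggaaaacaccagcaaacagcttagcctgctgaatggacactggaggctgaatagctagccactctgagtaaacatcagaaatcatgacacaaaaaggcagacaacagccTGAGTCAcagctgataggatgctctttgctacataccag
Rapgef2: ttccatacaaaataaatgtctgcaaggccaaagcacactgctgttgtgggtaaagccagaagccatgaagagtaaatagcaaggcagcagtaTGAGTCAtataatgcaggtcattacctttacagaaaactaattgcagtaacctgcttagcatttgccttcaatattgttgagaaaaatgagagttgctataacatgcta
The Tenm4 window holds 2 matches, on either side of its centre, and each of the other windows holds 1.

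A minority of the members resembled mitochondrial DNA and stood apart from the rest, and they are given before the other results. The authors aligned reads to a genome without the mitochondrial chromosome. Of the 6597 regions, 130 (1.97%) matched that chromosome by blastn at an e-value of at most 1e-05 or shared an unbroken run of at least 20 bases with it, against 45 (0.429%) of the promoter regions. In windows of this length such runs were found in 117 regions with all 7 lists (1.77%) and in 0.0104% to 0.0580% of distal regions with 1 to 6 lists. All of the 10 strongest members and 38 of the 100 strongest were of this kind. Their strength hardly varied: the median SD over the 7 libraries of log2 fold enrichment was 0.10, against 0.52 for the other members. The position of the summit spanned a median of 3 bp over the 7 libraries, against 99 bp over all members, and the median width was 222 bp against 577 bp. A region 1198 kb downstream of the start of Galc (chr12:97061348-97061892), the gene of a lysosomal galactosidase, matched the mitochondrial chromosome at 99.7% over 365 bp, and its fold enrichment was 26.4 and 26.3 in alpha, 26.2, 26.2 and 26.2 in beta, and 26.0 and 26.0 in delta.

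A further kind was narrow and shared only a short run. In 96 members the longest shared run was 20 to 25 bases, 89 of these runs began about 100 bp from the start of the region, and 82 of the regions differed by at most 3 bp from the median width of 222 bp. An example among these 82 lay 189 kb downstream of the start of Nr4a2, the gene of an orphan nuclear receptor, at chr2:56934982-56935206, with a run of 25 bases that began 100 bp into the region. Its fold enrichment was 27.7 and 28 in alpha, 27.7, 27.7 and 26.9 in beta, and 25.6 and 27.3 in delta. Both examples are printed on the plus strand with the stretches in capitals that are identical to the mitochondrial chromosome over at least 20 bases, the Galc one 100 bp to either side of its summit (chr12:97061520-97061720) and the Nr4a2 one whole.
Galc: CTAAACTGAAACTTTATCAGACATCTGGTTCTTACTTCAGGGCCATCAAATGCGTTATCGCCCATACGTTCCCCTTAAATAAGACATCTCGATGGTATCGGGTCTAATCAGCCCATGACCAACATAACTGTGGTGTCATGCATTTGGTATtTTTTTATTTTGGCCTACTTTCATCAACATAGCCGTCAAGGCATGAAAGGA
Nr4a2: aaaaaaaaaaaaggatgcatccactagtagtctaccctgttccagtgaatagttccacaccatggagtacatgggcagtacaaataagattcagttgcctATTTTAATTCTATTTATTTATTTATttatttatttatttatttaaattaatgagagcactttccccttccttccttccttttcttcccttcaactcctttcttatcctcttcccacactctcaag
In the Galc window all bases but 1 are in capitals, and in the Nr4a2 region 25 bases. A further 61 members without such a match also had summits within 5 bp of each other, and 59 of these were narrower than 260 bp. Reads that come from mitochondrial DNA and reads from these places in the nucleus cannot be told apart in a peak list. Below, the AP-1 share and the numbers of calls are therefore also given without the 130 members, and the ranking of the strongest leaves them out.

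**Figure D1:**
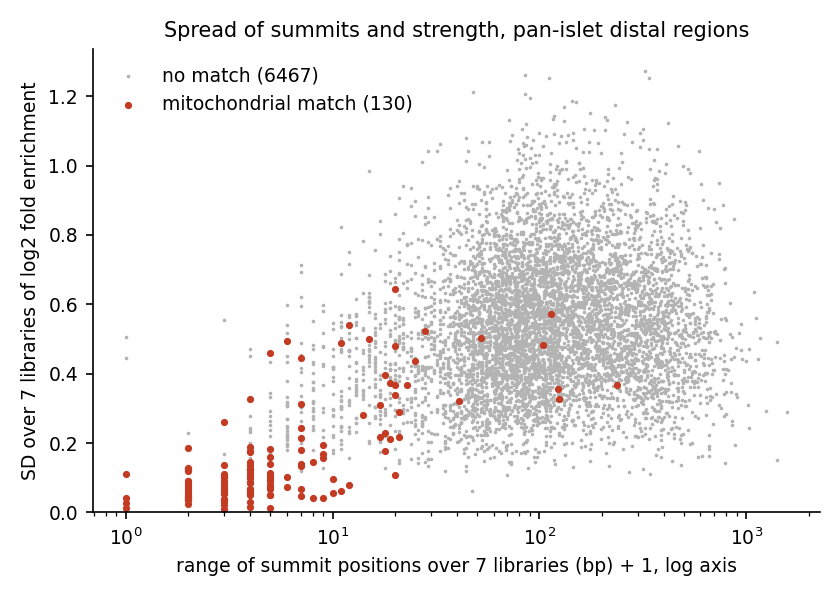
Each point is 1 of the 6597 pan-islet distal regions, with the range of its summit positions over the 7 libraries plus 1 bp on a log axis and the SD over the 7 libraries of its log2 fold enrichment. The 130 regions that match the mitochondrial chromosome (red) gather at the lower left, with a median summit range of 3 bp and a median SD of 0.10, and the other 6467 (grey) spread to the right and upward, with a median SD of 0.52.

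Apart from these, the strongest pan-islet distal regions were strong in every library. Strength is given as the fold enrichment at the summit and as the percentile of the -log10 p within a list, and regions were ranked by the lowest of their 7 percentiles, which describes the members and tests nothing, as presence in all lists chose them. The strongest lay 64.1 kb upstream of Gm21119, a predicted gene, with fold enrichments of 16.7 and 19.6 in alpha, 19.8, 17.6 and 22.1 in beta, and 20.2 and 19.2 in delta. It had 6 further near-identical places in the genome, and that near the zinc finger gene Zfp960 had 3, whereas the other 8 of the 10 strongest had none. The region 22.2 kb downstream of the start of Ccne1, the gene of cyclin E1, ranged from 16.5 in beta 2 to 21.4 in beta 3. The region 317 kb upstream of Tenm4, the gene of a teneurin that guides neuronal connections, ranged from 15.8 in beta 2 to 25.2 in beta 3, and that 260 kb upstream of 4930412O13Rik from 14.3 in beta 1 to 19.5 in alpha 1. The remaining 5 lay near the predicted gene Gm21060, En1 (a homeobox gene of the midbrain), Mmp27 (a matrix metalloproteinase), 4930444G20Rik and Cr2 (a complement receptor), and their fold enrichments ran from 14 near Mmp27 in beta 1 to 28.4 near Cr2 in alpha 1. None of the 10 was called in a comparison of cell types. At the other end of the rule, regions with all 7 lists had a median lowest percentile of 64.5 and a median width of 572 bp, and the 5343 distal regions with 6 lists had 37.8 and 512 bp. The list most often missing there was beta 2 (2212 regions) and the least often delta 1 (130 regions). At the 3 kb limit, the 166 members at 3 to 3.5 kb from a start had a median lowest percentile of 67.7 and the 190 regions at 2.5 to 3 kb, which were counted as promoter regions, 65.8.

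The word of AP-1 was the most frequent of the 17 searched. The words differ in length and in how many letters are fixed, so their shares do not rank the factors. It was found in 1802 of the 6597 windows (27.3%, 95% Wilson interval 26.3 to 28.4), against 676 (6.44%, 5.99 to 6.93) of the 10491 windows of the same length in pan-islet promoter regions. Among distal regions the share rose with the number of lists, from 7.14% with 1 list through 11.6%, 18%, 21.2%, 22.3% and 24.8% to 27.3% with all 7. By far the longest list was that of beta 1, with 518503 peaks, of which 5.0% reached a -log10 q of 2. How many of the regions with 1 list came from it was not counted, and this limit holds for every comparison with them. Regions with all lists of 1 cell type and no list of another stood at 17.4% of 2459 alpha regions, 22.4% of 616 beta regions and 19.3% of 2124 delta regions. These are held by 2 lists in alpha and delta and by 3 in beta. Their shares lay below that of members but above the 11.6% and 18% of all distal regions with as many lists. Without members that match the mitochondrial chromosome the share was 27.8%, and among those 130 it was 4.62%. The intervals reflect counting error alone, and regions that lie close together are not independent draws. The matches gathered at the summit: in bins of 20 bp there were 54.4 and 54.7 matches per 1000 members on either side of the summit and 6.82 and 6.97 at the 2 ends of the 600-bp stretch examined. In promoter regions the same 4 values were 11.6, 10.9, 2.86 and 4.58. Members with the word had a median lowest percentile of 68.0 and those without 62.7, and 53.3% and 47.5% of them had a -log10 q of at least 2 in all 7 libraries. The share was 26.2% of intergenic, 28.8% of intronic and 26.7% of exonic members.

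**Figure D2:**
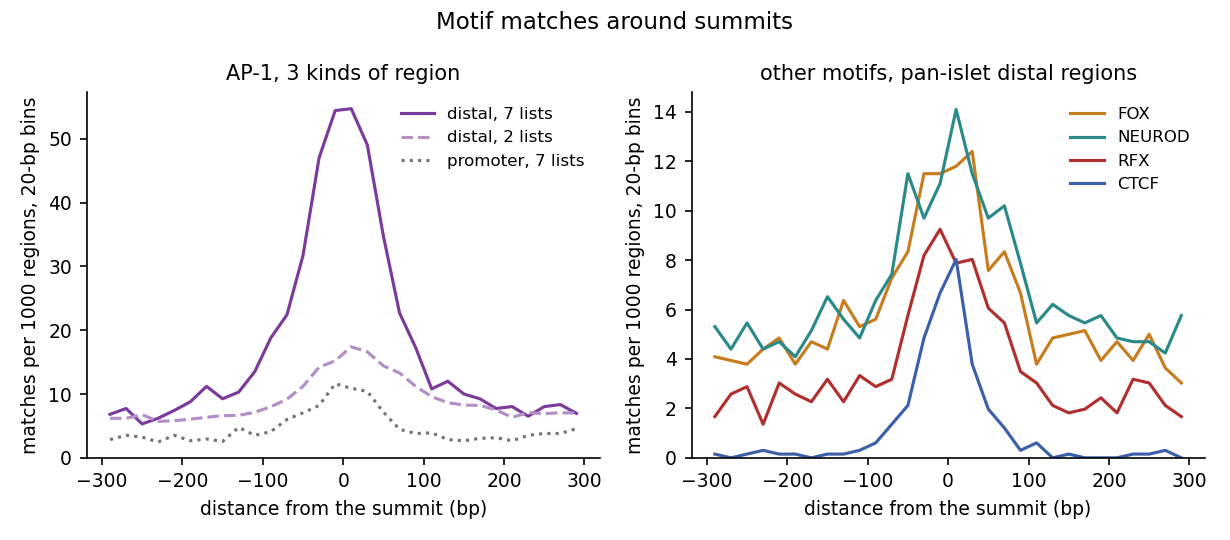
Matches per 1000 regions in bins of 20 bp by distance from the summit in bp, for AP-1 in 3 kinds of region (left) and for 4 other words in pan-islet distal regions (right). AP-1 matches in pan-islet distal regions reach 54.7 per 1000 at the summit and fall to 6.82 and 6.97 in the outermost bins, and they stay far lower in distal regions with 2 lists and in pan-islet promoter regions.

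The words of FOX, NEUROD and RFX factors were less frequent than that of AP-1 but also more common than in regions with 1 list. The FOX word TGTTTAC, bound by FOXA1 and FOXA2, was found in 8.66% of members, 3.09% of 1-list regions and 2.21% of promoter regions. For the NEUROD word CAGATGG these shares were 9.22%, 4.42% and 2.78%, and for the RFX word GTTGCCA 5.62%, 2.05% and 3.27%. The CTCF consensus, searched as 14 letters, was found in 2.99% of members, 0.132% of 1-list regions and 0.906% of promoter regions, and in 3.78% of distal regions with 6 lists. The words that fill promoters were scarce: SP (GGGCGGG) was found in 4.44% of members against 44.7% of promoter regions, and ETS (CCGGAAG) in 1.58% against 13.8%. The homeodomain word TAATTA was found in 6.88% of members and 5.95% of 1-list regions, and the MAF word TGCTGAC, which can share letters with an AP-1 match, in 5.82% and 3.40%. The TEAD word CATTCCA was less frequent in members (2.49%) than in 1-list regions (3.36%). For the GATA word AGATAAG these shares were 2.5% and 2.94%. NKX2 was found in 2.70% of members and 2.51% of 1-list regions. The words CRE, HNF4, NRF1 and YY1 were found in 0.197% to 0.712% of members, and 2657 members (40.3%) held none of the 17. Both strands were searched, and a match shows the letters and not a bound factor. The median GC content of the windows was 48.3% in members, 65.7% in promoter regions and 43.3% in 1-list regions, and 5.12%, 0.791% and 29.1% of the windows were covered by masked repeats over more than 0.5 of their length.

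**Figure D3:**
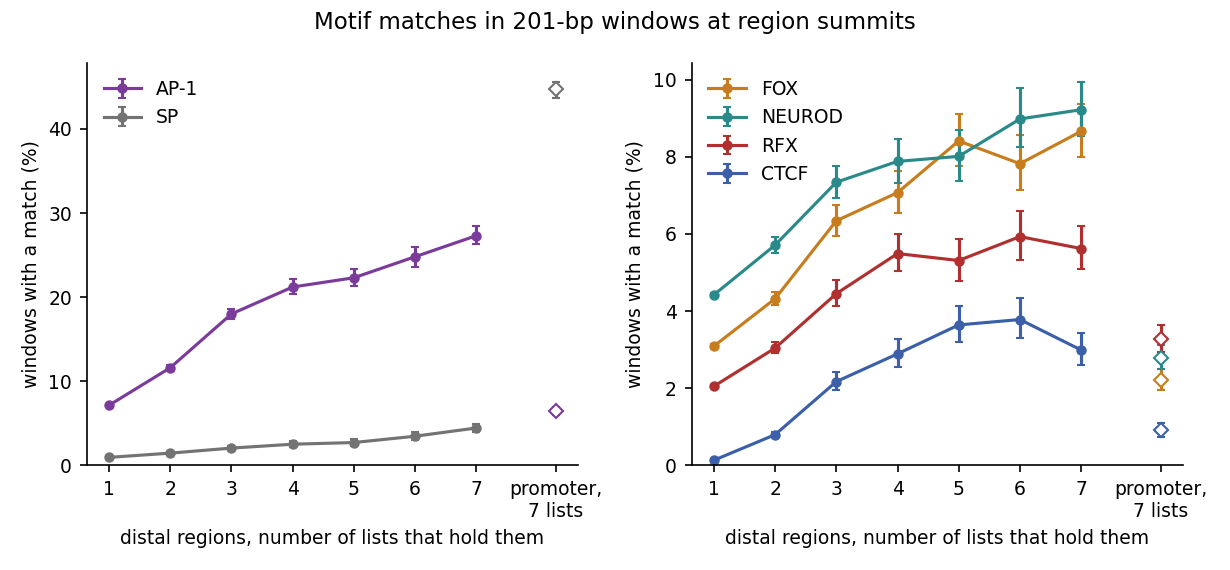
Share of windows, 100 bp to either side of the summit, with at least 1 match, in percent, for distal regions held by 1 to 7 lists (circles) and pan-islet promoter regions (diamonds), with 95% Wilson intervals. AP-1 climbs from 7.14% to 27.3% and falls to 6.44% in promoters, whereas SP stays at or below 4.44% in distal regions and reaches 44.7% in promoters. The right panel shows FOX, NEUROD, RFX and CTCF on a smaller scale.

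Members lay between genes more often than within them. By GENCODE vM21, 3400 (51.5%, 50.3 to 52.7) were intergenic, 2777 (42.1%, 40.9 to 43.3) intronic and 420 (6.37%, 5.80 to 6.98) overlapped an exon. Of the 5343 distal regions with 6 lists, 48.0%, 46.7% and 5.35% were of these classes, and of those with 1 list 57.6%, 38.7% and 3.67%. Of the intronic members, 2377 lay in an intron of a protein-coding gene, and 696 of these (29.3%) in the first intron, against 27.2% of the regions with 6 lists. The genes with the most members in their introns were Dlg2, a synaptic scaffold, with 10, Maml3, a Notch coactivator, and Pde4d, a cAMP phosphodiesterase, with 9 each, and Bach2, Celf4, Ctnna2, Nav2 and Ptprn2 with 8 each. The nearest protein-coding start was a median of 66.7 kb away, as in regions with 6 lists (66.6 kb) and nearer than in those with 1 (107 kb). It was within 10 kb for 9.25% of members and beyond 500 kb for 7.59%, and the farthest was 2564 kb away. Density ran from 1.06 members per Mb on chromosome 19 to 3.52 on chromosome 3. Members were few for each promoter region on chromosomes 19 and 11, at 27.2 and 32.9 per 100, and most on chromosome 18 at 95.

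Nearest genes show where the members sit and do not establish a target. Of 20780 autosomal protein-coding genes, 3786 (18.2%) had the start nearest to at least 1 member, 1411 to at least 2 and 185 to at least 5. For 4078 members (61.8%) the nearest gene also had a pan-islet promoter region at its start, against 59.4% for regions with 6 lists and 51.0% for those with 1. Of the protein-coding genes, 43.8% had such a region. The gene nearest to the most members was Celf4, an RNA-binding protein of neurons and endocrine cells, with 13, of which 8 lay in its own introns. Tbl1xr1, a subunit of the NCoR corepressor complex, followed with 11, and 9 of these were intergenic. Dsel, Inhba, Pcdh20, Pik3c3 and Rapgef2 had 10 each. All 10 of Dsel, an epimerase of dermatan sulfate, lay upstream at 514 to 1548 kb, and all 10 of Pcdh20, a protocadherin, upstream at 463 to 2440 kb. Those of Inhba, the gene of the activin A subunit, lay at 5.99 to 763 kb.

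Genes of the endocrine programme were near members more often than genes at large, but so were some small lists of other lineages given below. The same shares for distal regions with fewer lists were not taken. Of 18 factors listed as pan-endocrine, 12 (66.7%) were the nearest gene of at least 1 member, with 22 members in all, beside 18.2% of all protein-coding genes. The list held Nkx6-1, which the paper associates with beta cells, and Pdx1, whose expression it limits to beta and delta cells. Insm1, Isl1 and Rfx6 had 3 each, Nkx6-1, Pax6, St18 and Gata6 2 each, and Nkx2-2, Neurod1, Rfx3, Foxa2 and Foxo1 1 each, while Pdx1, Foxa1, Myt1, Hnf4a and Ldb1 were among those with none. The strongest was 117 kb downstream of the start of Isl1, a LIM homeobox factor, with 12.3 and 15.6 in alpha, 9.52, 11.8 and 13.2 in beta, and 14.5 and 12.7 in delta. The Pax6 region in intron 9 of Elp4 (chr2:105738689-105739265), 69.8 kb from the start of Pax6, had 17.5 and 20.6 in alpha, 11.6, 5.30 and 9.87 in beta, and 18.3 and 18.3 in delta. Every alpha library stood above every beta library there (log2 difference 0.89, SE 0.23, limma adjusted p = 0.0314). With a lane term that difference was 0.34 (limma adjusted p = 0.509). The Gata6 region 48.9 kb downstream of its start had 11.4 and 11 in alpha and 14.1, 13.9 and 16.7 in beta (log2 difference -0.71, SE 0.20, limma adjusted p = 0.0486). This call was lost with a replicate block (limma adjusted p = 0.0652) and with a lane term (limma adjusted p = 0.154). The 3 Rfx6 regions included 1 in intron 18 of the gene itself, with 13.6 and 11.2 in alpha, 5.38, 4.84 and 4.23 in beta, and 13.2 and 9.38 in delta, a difference that did not pass the test.

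Hormone and granule genes gave a like share, 12 of 20 (60%) with 27 members. Cpe, carboxypeptidase E, which trims prohormones, had 6, of which 5 lay in its introns, Ptprn2, a granule membrane protein, had 5 in its introns, and Slc30a8, the zinc transporter of the granule, had 4. The region in intron 2 of Slc30a8, whose sequence is shown above, had 13.5 and 11.6 in alpha, 13.7, 10.6 and 17.7 in beta, and 15.2 and 15.4 in delta, so the 3 cell types overlapped. The strongest of the list lay 55.6 kb upstream of Pcsk1, the gene of a prohormone convertase, with 19 and 17.5 in alpha, 16.9, 13.8 and 15.1 in beta, and 21.7 and 15.2 in delta. Sst, Iapp, Ucn3 and Ins1 had 1 member each, and Ins2, Gcg, Ppy, Pyy, Chgb, Scg3, Vgf and Ptprn none. Of the 27, only the Ins1 one was called. It lay 712 kb upstream of Ins1, with 5.25 and 6.60 in alpha, 8.47, 10.5 and 10.1 in beta, and 5.73 and 8.87 in delta (beta over alpha, log2 difference of alpha minus beta -1.13, SE 0.32, limma adjusted p = 0.0486), and this call was lost with a lane term (limma adjusted p = 0.172).

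Other lists stood lower or were small. Of 12 genes of glucose sensing and excitability 5 (41.7%) had a member, with 7 in all, 3 of them near Slc2a2, the glucose transporter GLUT2, and 1 each near Kcnj11, Cacna1a, G6pc2 and Glp1r. Of 13 autosomal exocytosis genes 3 (23.1%) had 1 each, namely Snap25, Syt7 and Syt13. None of 14 proteasome subunits had a member, although 8 had a pan-islet promoter region. Among the autosomal factors of 1 or 2 islet cell types, Irx2 had 3 members and Irx1 had 1, which had 18 near-identical further places, while Mafa and Hhex had none. An Irx2 region 189 kb upstream had 11.1 and 13.7 in alpha, 2.68, 4.17 and 5.15 in beta, and 10.1 and 6.52 in delta (alpha over beta, log2 difference 1.26, SE 0.33, limma adjusted p = 0.0331), and this call too was lost with a lane term (limma adjusted p = 0.0644). For other lineages the counts were 1 of 7 acinar (Cpa1), 2 of 4 duct (Cftr and Sox9), 1 of 5 immune (Ptprc) and 2 of 5 endothelial and stromal genes (Cdh5 and Kdr). No gene of these 4 lists had a pan-islet promoter region. The Kdr region, near the gene of a VEGF receptor, had 3.0 and 3.67 in alpha and 5.08, 5.93 and 9.49 in beta (log2 difference -1.42, SE 0.36, limma adjusted p = 0.0270), and this call was lost with a replicate block (limma adjusted p = 0.0513) and with a lane term (limma adjusted p = 0.161). The median log2 difference of alpha minus beta was 0.25 over the pan-endocrine, 0.38 over the cell type factor, -0.05 over the granule and -0.44 over the glucose members, beside -0.10 over all 6597.

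Most members stood alone. With neighbours joined over gaps of up to a little under 13 kb, 784 members (11.9%) formed 369 clusters of at least 2, of which 334 were pairs, 35 held at least 3 and 5 held at least 4. The median gap between neighbours was 177 kb. Of the distal regions with 6 lists, 9.34% lay in such clusters, at a median gap of 246 kb. The 2 largest clusters held 7 members each and followed each other on chromosome 6, at chr6:47654794-47685855 (59.5 to 89.7 kb from the start of Ezh2, a Polycomb methyltransferase) and chr6:47739628-47772526 (40.9 to 72.8 kb from Pdia4, an endoplasmic reticulum chaperone). All 14 of these members had near-identical further places in the genome, up to 16, and their fold enrichments were modest, with medians of 4.29 to 5.98 and of 5.24 to 7.32 over the libraries. Clusters of 4 lay near Mrgprb5 (chr7:48124215-48138776, with 2 members that had further places), Defb1 (chr8:21756462-21769495) and Irf2bpl (chr12:86816152-86837071). No member of these 5 clusters was called in a comparison of cell types. Of all members, 187 (2.83%) had a further place at 90% identity over at least 80% of the region, against 3.34% of the promoter regions. Within the stitching gap of a little under 13 kb from a pan-islet promoter region lay 664 members (10.1%), against 9.69% of distal regions with 6 lists and 6.03% of those with 2.

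Some members coincided with enhancers annotated in RefSeq. There were 34 such members (0.515%), 31 of them over VISTA enhancers, which were tested in transgenic embryos, against 0.599% of distal regions with 6 lists, 0.170% with 2 and 0.0920% with 1. The following examples were chosen after their values were seen. A region 15.4 kb downstream of the start of Isl1 (chr13:116293648-116294244) overlapped an annotated Isl1 enhancer, with 6.09 and 4.70 in alpha, 3.39, 4.41 and 4.29 in beta, and 9.0 and 6.32 in delta. Regions over VISTA enhancers lay near Fos (chr12:85455046-85455829) and Fosb (chr7:19319372-19320351), whose proteins are parts of AP-1, with ranges of 5.30 to 16.4 and of 5.61 to 13.6. A region 7.66 kb upstream of Hbb-y (chr7:103860878-103861327) overlapped the annotated HS2 element of the beta-globin locus control region, an enhancer of red blood cell precursors, and held an AP-1 match. It was weak and uneven, with 3.0 and 5.87 in alpha, 3.57, 6.56 and 9.56 in beta, and 5.02 and 11.5 in delta. Of the 34, the region in intron 5 of Npas3 nearest to Egln3 (chr12:53875143-53875970) was called between alpha and beta. It had 19.4 and 20.2 in alpha, 6.03, 5.08 and 7.75 in beta, and 13.7 and 12.9 in delta (log2 difference 1.34, SE 0.23, limma adjusted p = 0.00274). With a lane term its adjusted p was 0.0509 (limma). That 32.3 kb upstream of Ly86 (chr13:37312356-37312955) was called between beta and delta, with 6.34 and 11.3 in alpha, 1.80, 3.39 and 3.21 in beta, and 13.9 and 9.86 in delta (log2 difference -1.52, SE 0.35, limma adjusted p = 0.0324), and the adjusted p with a lane term was 0.0622 (limma).

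Distal members were weaker than pan-islet promoter regions in every library. Their median fold enrichment was 6.58 and 7.69 in alpha, 4.84, 5.38 and 6.42 in beta, and 8.93 and 7.69 in delta, and that of promoter regions was 9.38 and 10.6, 5.83, 6.35 and 8.64, and 11 and 9.87. A -log10 q of at least 2 in all 7 libraries was reached by 3239 members (49.1%) and by 70.3% of promoter regions. The difference of the median percentile, distal minus promoter, was also taken within each library. It was below 0 in all 7, from -7.88 in alpha 1 to -0.762 in beta 1. Its mean was -7.68 ± 0.282 percentile points in alpha (SD, n = 2), -3.37 ± 2.37 in beta (SD, n = 3) and -5.69 ± 2.86 in delta (SD, n = 2). A difference between cell types was not detected against the spread of the replicates (exact permutation test over 210 assignments, without direction, p = 0.276), and the smallest p this design allows is 0.00952. With only peaks of a -log10 q of at least 2, p was 0.0476 (exact permutation test). Percentiles depend on the length of a list, and in the long unfiltered beta 1 list both medians, 97.3 and 98.1, lay close to the top, so list length and cell type cannot be told apart in this test.

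**Figure D4:**
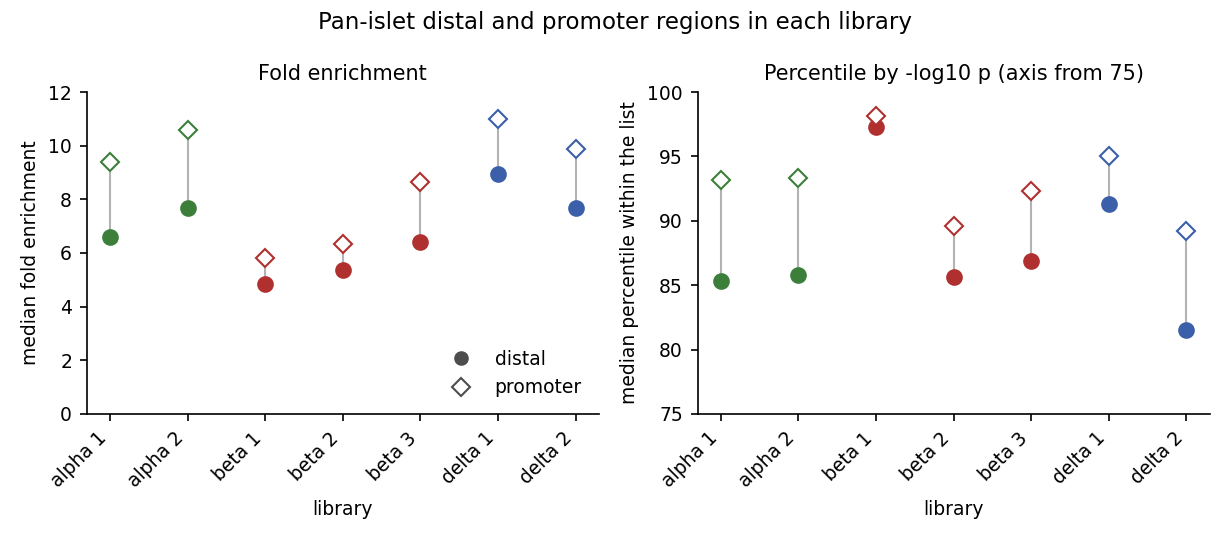
Median fold enrichment (left) and median percentile by -log10 p within the list (right, axis from 75) of pan-islet distal regions (circles) and pan-islet promoter regions (open diamonds) in each of the 7 libraries. The distal median lies below the promoter median in all 7, by 7.88 percentile points in alpha 1 and by 0.762 in beta 1.

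Although open in all libraries, members differed in strength between cell types. The rule used presence in the lists and not cell type, but it kept out regions under the peak threshold in any library, which limits how far a member can differ. Log2 fold enrichment over the 17088 pan-islet regions was quantile-normalized and compared with limma, and a region was called at a Benjamini-Hochberg adjusted p under 0.05. Between alpha and beta cells 484 members were called, 149 higher in alpha and 335 higher in beta. Of the regions tested, 4.54% were called, 1.96% higher in alpha and 2.57% higher in beta, and of the members 7.34%. Between alpha and delta cells 96 members (1.46%) were called, 19 higher in alpha and 77 higher in delta, against 0.632%, 0.146% and 0.486% of the regions tested. Between beta and delta cells 136 members (2.06%) were called, 65 higher in beta and 71 higher in delta, against 1.25%, 0.497% and 0.749%. With regions that match the mitochondrial chromosome left out of the fit, 508, 99 and 134 members were called, in the same order. These comparisons share libraries. By the study's quality table, each beta library had fewer unique mapped reads than either alpha library. Depth and cell type therefore cannot be told apart in the alpha and beta comparison. With a lane term 120 of the 484 and 87 of the 136 stayed called, and on the logit of the percentile of -log10 p 30 of the 484, 0 of the 96 (209 members at an unadjusted limma p under 0.05) and 4 of the 136. The split between directions moved with the scaling: of the alpha and beta calls, 149 against 335 became 116 against 544 with median centring and 207 against 254 when only distal regions were fitted. Of the alpha and delta calls 19 against 77 became 26 against 51 when only distal regions were fitted, and of the beta and delta calls 65 against 71 became 165 against 62 with median centring. Alpha and delta libraries shared no sequencing lane, so no value within a lane could be had, and with a lane term, which rests on the beta libraries alone, none of the 96 was called (944 members at an unadjusted p under 0.05). Within the lane shared by both alpha libraries and beta 1, none passed the test (1729 at an unadjusted p under 0.05), and 484 of the 484 calls had the same direction. Within that of beta 2, beta 3 and both delta libraries 51 members passed and 136 of 136 had the same direction. The counts depended on single libraries. Between alpha and beta there were 49 calls without alpha 1, 57 without alpha 2, 317 without delta 1 and 284 without delta 2. Between alpha and delta these counts were 13, 14, 3 and 5, with 150 without beta 2, and between beta and delta 55, 63, 5 and 5. A lone library was assumed to vary like the other groups. In all these fits every call of the full data kept its direction. The calls were chosen on these same libraries, so a kept direction is not independent support.

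**Figure D5:**
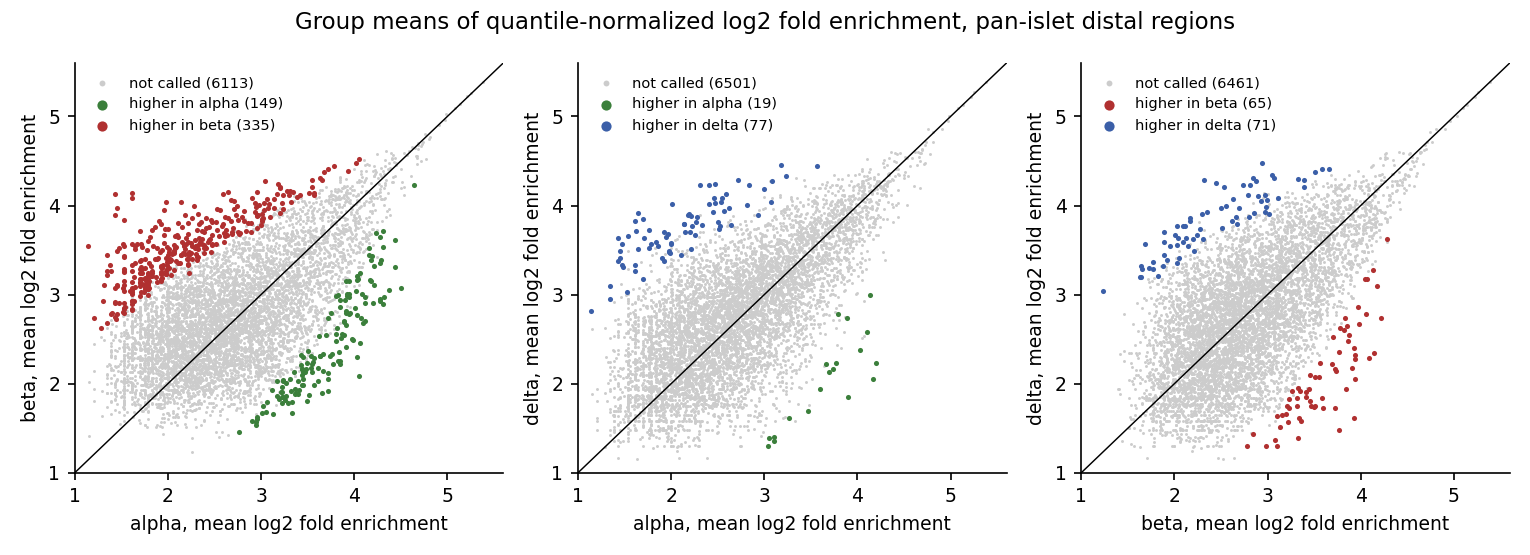
Mean quantile-normalized log2 fold enrichment of each pan-islet distal region in 1 cell type against another, with the line of equal values. Called regions are coloured by the cell type in which they were higher, 149 and 335 for alpha and beta, 19 and 77 for alpha and delta, and 65 and 71 for beta and delta, and the rest are grey.

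Among the named regions, those higher in beta than in alpha gave the largest differences. The region 853 kb downstream of the start of Rapgef2, the gene of an exchange factor for Rap GTPases, at chr3:78432731-78433404, had 2.25 and 3.67 in alpha, 18, 16.7 and 14.1 in beta, and 15.5 and 13.5 in delta. It was low in alpha only, with no overlap (alpha minus beta -2.69, SE 0.28, limma adjusted p = 5.20e-05). Alpha minus delta was -2.20 (SE 0.31, limma adjusted p = 0.00219). A region in intron 1 of Egfr, the epidermal growth factor receptor (chr11:16800518-16801029), had 3.0 and 3.67 in alpha, 19.3, 11.3 and 19.6 in beta, and 6.40 and 6.06 in delta, and thus stood highest in beta (alpha minus beta -2.53, SE 0.31, limma adjusted p = 3.44e-04). Beta minus delta was 1.80 (SE 0.31, limma adjusted p = 0.00642). The region 303 kb upstream of Trps1, a zinc finger repressor, had 2.25 and 3.67 in alpha and 9.38 to 16.1 in the other libraries (alpha minus beta -2.46, SE 0.30, limma adjusted p = 3.44e-04). These 3 differences of alpha and beta passed in each of 17 alternative fits over both lanes that held the regions, although no region passed within the lane of both alpha libraries and beta 1 alone. Of the 3 regions, only that near Rapgef2 held an AP-1 match.

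The 3 named regions that were higher in alpha than in beta were high in delta as well. The region 81.8 kb upstream of Gm9747 (chr1:82150758-82151292) had 17.8 and 22 in alpha, 6.03, 4.92 and 8.33 in beta, and 26.5 and 20.1 in delta, so beta stood apart on the low side (alpha minus beta 1.33, SE 0.20, limma adjusted p = 0.00116). Beta minus delta was -1.53 (SE 0.20, limma adjusted p = 8.40e-04). The regions near Agtr1b, an angiotensin II receptor, and Dnm3, a dynamin of membrane scission, had 18.3 to 22.2 and 22 to 23.3 in alpha, 4.84 to 7.75 and 4.24 to 13 in beta, and 16.7 to 21.4 and 21.3 to 21.7 in delta (alpha minus beta 1.41 and 1.43, SE 0.21 and 0.24, limma adjusted p = 0.00116 and 0.00246). Those 3 calls were lost without alpha 2 near Gm9747 (limma adjusted p = 0.0672) and Agtr1b (limma adjusted p = 0.0669) and without either alpha library near Dnm3, where the highest was 0.0728 (limma adjusted p). All 3 were lost as well on the logit of the percentile of -log10 p (limma adjusted p = 0.618, 0.527 and 0.244). A region in intron 1 of March4, a membrane ubiquitin ligase, was also higher in delta than in beta, with 14.1 and 14.4 in alpha, 4.31, 5.93 and 5.80 in beta, and 18.7 and 22.8 in delta (beta minus delta -1.49, SE 0.24, limma adjusted p = 0.00432). This call was lost on the same logit (limma adjusted p = 0.979) and without delta 1 or without delta 2, with a highest limma adjusted p of 0.203, and that of beta and delta near Gm9747 was lost on the logit (limma adjusted p = 0.513) and without delta 1 (limma adjusted p = 0.151).

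Other regions were lower in delta or stood apart in a single cell type. The region 32.1 kb upstream of Larp4b, an RNA-binding protein (chr13:9061330-9061824), had 17.5 and 19.7 in alpha, 13.9, 14 and 13.4 in beta, and 5.56 and 4.69 in delta, and no delta value reached those of the other cells. Beta minus delta was 1.88 (SE 0.23, limma adjusted p = 4.07e-04) and alpha minus delta 2.12 (SE 0.25, limma adjusted p = 5.30e-04). It kept both calls in each fit that left out a library. The alpha and delta call was lost with a lane term (limma adjusted p = 0.0938), and both were lost on the logit of the percentile of -log10 p (limma adjusted p = 0.413 for alpha and delta and 0.132 for beta and delta). The region 826 kb upstream of Mmp16, a membrane matrix metalloproteinase, had 10.3 and 11.2 in alpha, 12.3, 14.3 and 14.2 in beta, and 5.19 and 2.52 in delta (beta minus delta 2.31, SE 0.30, limma adjusted p = 7.93e-04), and this call was kept in each of 17 alternative fits over both lanes that held the region. Its percentile in delta 2 was only 8.61, and it reached a -log10 q of 2 in 6 libraries. That 16.1 kb upstream of Lyst, a regulator of lysosome traffic, reached a -log10 q of 2 in 5 libraries, with percentiles of 37.8 and 35.2 in delta. It had 4.48 and 3.67 in alpha, 10.6 to 12.8 in beta, and 2.87 and 3.36 in delta, and stood high in beta alone (beta minus delta 2.28, SE 0.35, limma adjusted p = 0.00350). It was lost without either delta library, with a highest limma adjusted p of 0.106. A region in intron 6 of Spock3, a proteoglycan gene, had 17.6 and 20.4 in alpha, 6.25, 5.47 and 6.42 in beta, and 5.73 and 5.89 in delta, and stood high in alpha alone (alpha minus delta 1.97, SE 0.31, limma adjusted p = 0.00367). The exonic region nearest to Prrc1 had 14.9 and 16.7 in alpha, 7.46 to 10.4 in beta, and 4.11 and 4.84 in delta (alpha minus delta 2.04, SE 0.32, limma adjusted p = 0.00344). Higher in delta than in alpha were also the regions near Tll1, a tolloid-like protease, with 6.0 and 5.87 in alpha and 20.6 and 20.3 in delta, and near Pcdh20, with 7.25 and 6.52 against 19.9 and 18.7 (alpha minus delta -1.82 and -1.54, SE 0.24 and 0.22, limma adjusted p = 0.00124 and 0.00229). Beta values were 12.7 to 13.1 near Tll1 and 14.5 to 17.3 near Pcdh20, and beta minus delta, at -0.36 and -0.00, did not pass the test (limma adjusted p = 0.405 and 0.998). Without 1 or more libraries the alpha and delta calls near Spock3 (without either alpha or either delta library, highest limma adjusted p = 0.105), Prrc1 (without alpha 1, alpha 2 or delta 1, 0.0919), Tll1, Rapgef2 and Pcdh20 (without either delta library, 0.0560, 0.0875 and 0.0901) were lost.

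Called members held AP-1 matches at shares above that of all members in all 6 directions. The share was 40.3% of the 149 higher in alpha than beta (95% Wilson interval 32.7 to 48.3), 33.1% of the 335 higher in beta than alpha (28.3 to 38.3), 52.3% of the 65 higher in beta than delta (40.4 to 64.0) and 39.0% of the 77 higher in delta than alpha (28.8 to 50.1), beside 27.3% of all members. It was 42.1% of the 19 higher in alpha than delta (23.1 to 63.7) and 32.4% of the 71 higher in delta than beta (22.7 to 43.9), and these intervals reach below the share of all members. Seen from the other side, 9.49% of members with the word and 6.53% of those without were called between alpha and beta, and 3.16% and 1.65% between beta and delta. RFX words were found in 15.4% of the members higher in alpha than beta and 16.9% of those higher in delta than beta, against 5.67% and 3.08% of those higher in beta, and 5.62% of all. FOX words were found in 16.1% of those higher in alpha than beta and 7.46% of those higher in beta. Of members with an SP word 2.05%, and of those with a CTCF word 3.55%, were called between alpha and beta. Members higher in beta than alpha were intergenic in 59.1% (53.8 to 64.2) and those higher in alpha in 45.6% (37.8 to 53.6). Their nearest protein-coding starts lay at medians of 108 kb and 64.5 kb. These shares were not tested.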

How the data were processed

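ATAC-Seq peak lists of 7 libraries were used, with cell type and replicate taken from their labels, lane from the list names and sex from the study's quality table. Per the labels and the study's methods, the authors checked reads with FastQC, trimmed single-end 50 bp reads with Trimmomatic, aligned them with Bowtie2 to mm10 without mitochondrial DNA, marked duplicates with Picard and called peaks per library with MACS2 (versions not given in the sources used here). The deposited score is 10 times the -log10 p, the fold enrichment is the authors' ratio of summit signal to local background, and the -log10 p and -log10 q values are those of the authors' MACS2. The lowest -log10 p in every list was 2.01. The lists hold no reads, so depth behind a single value is unknown, although the study's quality table gives mapped reads per library.

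Distinct intervals were merged at 1 bp of overlap and checked against bedtools 2.31.1. Each region took, per library, the peak of highest -log10 p, and its summit was the middle one of the libraries' summits. Positions came from GENCODE vM21 and sequences from RefSeq's GRCm38.p6, whose main chromosomes have the same coordinates. Mitochondrial matches and further places were found with BLAST+ 2.17.0. Log2 fold enrichment of the 17088 pan-islet regions was quantile-normalized and fitted with limma 3.58.1 (R 4.3.3), without a replicate term. The fit was tested on simulated data. A single value per library was compared by an exact permutation test. Python 3.11.15 with pandas 2.3.3, numpy 2.4.6, pysam 0.24.0 and matplotlib 3.10.9 was used.

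Named regions are the 10 of highest lowest percentile without mitochondrial match, the 5 largest clusters, the 5 genes nearest to the most members with ties, the 3 called regions of lowest p per comparison and direction, and the strongest near up to 4 genes of each list. A few of these items are not reported here. Members and lists were chosen with earlier results of these data known. Distal regions of chromosomes X and Y were left out. Alternatives were other peak sets, overlaps, distances, windows, scalings, a lane, sex or replicate term, leaving out each library and, chosen after seeing the data, leaving out mitochondrial matches by exact runs, regions of near-equal summits or near-identical places, and fits within a lane.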

Additional observations from a re-analysis of the deposited data

Results flagged for a closer look

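Outside the autosomes, 251 distal regions of the X chromosome also had a peak in all 7 lists, in data that no comparison above uses. Of these, 159 were intergenic and 78 intronic. On the Y chromosome there were 10, with a peak in the libraries from females as well, and the cause of this was not tested. The mice were pooled by sex, with 3 libraries from females and 4 from males, so strength on these chromosomes was not compared.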

How the results depend on the processing

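Peak lists without reads limit these results: fold enrichment depends on local background and depth, and only 5.0% of the beta 1 peaks reached a -log10 q of 2. The number of members, 6597, was 3238 with peaks of a -log10 q of at least 2, 3855 with 50000 peaks per list and 2765 with coverage of at least 0.5 of a region, and 6699 to 8802 when a library was left out. The intronic share, 42.1%, was 40.2% at this q, 40.2% beyond 10 kb from starts, 39.3% by protein-coding starts alone and 42.1% to 43.7% without a library. The share in clusters, 11.9%, was 6.58% at this q, 3.90% and 21.9% at stitching distances of 5 and 25 kb, and 12% to 14.9% without a library. AP-1 stood at 19.7% and 33.2% and median GC at 49.5% and 46.1% with 50 and 200 bp to either side of the summit. AP-1 was 29.7% with a -log10 q of at least 2 in every library, and GC 47.8% without near-identical places. Calls between alpha and beta, alpha and delta, and beta and delta (484, 96 and 136) numbered 30, 0 and 4 on the logit of the percentile of -log10 p (804, 209 and 534 members at an unadjusted p under 0.05), 263, 57 and 68 with a -log10 q of at least 2 in every library (3239 members), 144, 0 and 137 with a lane term, 660, 73 and 227 with median centring, 0 within lane L006 and 51 within lane L007, and 49 to 538, 3 to 150 and 5 to 202 without a library. The cause of these moves was not tested, beyond the fewer regions or libraries some of these fits hold. The percentile difference gave p = 0.0476 at this q and 0.183 to 0.533 without a library (exact permutation tests). Deviations of same-numbered libraries were correlated at -0.01 to 0.01, so replicate numbers did not pair the libraries, and with a replicate block the calls were 527, 110 and 185 and the percentile difference p = 0.333 (exact permutation test).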
